A study of Mus musculus with 14 samples.

Results

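The 10 genes described here encode fast-response regulators. They were the AP-1 subunits Fos, Fosb, Jun, Junb and Jund, the zinc finger factor Egr1, the orphan nuclear receptors Nr4a1, Nr4a2 and Nr4a3, and the phosphatase Dusp1. They were taken by symbol from a table of 46078 mouse genes. All 10 were in the table and 9 had enough counts to be tested, among 26990 tested genes. Fosb, with 50 counts over all 14 libraries, was not. Each library was bulk RNA-seq of 2000 cells sorted from marrow of C57BL/6 mice aged 8 weeks.

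The sorted cells were immature type 1 innate lymphoid cells (iILC1, sorted as negative for CD3 and positive for NK1.1, IL-7Ra and CD49a) and immature natural killer cells (iNK, sorted as negative for CD3, IL-7Ra and CD11b and positive for NK1.1, DX5 and CD27). In every mouse 1 allele of Il15 was floxed and the other was a knockout. Il15 encodes a cytokine on which both cell types depend. The conditional knockout (cKO) mice also carried Vav-Cre, a recombinase transgene that acts in the blood lineage, so that other cells of the marrow kept the floxed allele. Controls had the genotype Il-15-flox/KO and no Cre, so they too carried the knockout allele. The groups were cKO iILC1 (n = 4), control iILC1 (n = 3), cKO iNK (n = 4) and control iNK (n = 3).

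Immediate early genes are transcribed within minutes of a stimulus from transcription factors already present in the cell, without new protein synthesis, and their mRNAs are short-lived. FOS proteins bind DNA only as dimers with JUN proteins, EGR1 answers the ERK kinase pathway, and NR4A receptors rise with signalling from antigen receptors in lymphocytes. DUSP1 closes the loop by removing phosphate from the p38 and JNK kinases. The same genes are known to be induced by tissue dissociation and cell sorting.

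Total counts per library were 5478641 to 10308693 in cKO iILC1, 3512796 to 4933284 in control iILC1, 6254844 to 12572326 in cKO iNK and 6238016 to 8013984 in control iNK. Levels are given as CPM (TMM-normalised counts scaled to a common library size), mean ± SD over libraries. Of the sort markers, Il7r averaged 646 CPM in cKO iILC1 and 408 in control iILC1, against 22.3 in cKO iNK and 8.37 in control iNK. Itga1 (CD49a) averaged 60.9 and 62.6 CPM in cKO and control iILC1, against 11.2 and 12.0 in cKO and control iNK, and Itga2 (DX5) 87.3 and 87.7 CPM in cKO and control iILC1, against 204 and 223 in cKO and control iNK. Itgam (CD11b), a marker for which iNK were sorted as negative, was at 35.3 and 94.3 CPM in cKO and control iILC1, against 60.0 and 119 in cKO and control iNK. Cd3e, of the CD3 complex for which both were sorted as negative, was at 27.5 and 64.0 CPM in cKO and control iILC1, against 3.66 and 3.31 in cKO and control iNK. Il15 itself was at 11.2 to 24.95 CPM in cKO iILC1 and 11.7 to 13.7 in control iILC1, and at 8.58 to 12.3 CPM in cKO iNK and 8.16 to 11.1 in control iNK. Counts over the whole gene were thus no lower in cKO, and they do not resolve which exons were read. B-lineage markers summed to 530 to 768 CPM in cKO iILC1 against 250 to 359 in control iILC1, and to 499 to 699 CPM in cKO iNK against 95.7 to 110 in control iNK. Of the 15 B-lineage markers, 4 were called higher in cKO iILC1 and 11 in cKO iNK, and their part in the genotype results was not tested. In bulk libraries, fewer cells that express a gene and less RNA per cell cannot be told apart.

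No member passed the test for genotype or for cell type, in a fit over all 26990 genes (edgeR, quasi-likelihood F test, Benjamini-Hochberg adjusted p under 0.05). For cKO against control, 0 of 9 members were called in iILC1, where 0.0482% of all genes were called, and 0 of 9 in iNK, where 0.408% were. For iILC1 against iNK, 0 of 9 were called in cKO, beside 3.42% of all genes, and 0 of 9 in control, beside 3.91%. The difference between the genotype effects of the cell types was called for 0 of 9, beside 0.0778% of all genes. DESeq2 also called 0 members in each comparison, among the 5 with an adjusted p for genotype in iILC1 and the 8 with one in each other comparison. The level that stood out was that of single libraries. In both control groups the library numbered 2 held the highest Fos, Jun, Junb, Nr4a2 and Dusp1, and the lowest Egr1.

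The 250 bases upstream of the annotated RefSeq start are shown for Fos, Jun, Junb, Dusp1 and Nr4a1. Fos, Jun, Junb and Dusp1, and Nr4a2 with them, were highest in library 2 of both control groups. Nr4a1 was highest in library 2 of control iNK only, at 1.64 times the mean of the others. The sequence of Nr4a2 is not printed here. Promoter entries were found for 9 of the 10 genes and none was used for Egr1. Distances are from the RefSeq start. For Dusp1 and Nr4a3 that start lies inside the gene span used for counting, so their windows run partly into the gene. The match to TGACG nearest the start of Nr4a3, at 147 to 143 bases, falls inside that span. The sequences are from RefSeq on GRCm38.p6, read 5′ to 3′ on the strand of the gene, at chr12:85473640-85473889 (Fos, plus strand), chr4:95052223-95052472 (Jun, minus strand), chr8:84978749-84978998 (Junb, minus strand), chr17:26508473-26508722 (Dusp1, minus strand) and chr15:101266596-101266845 (Nr4a1, plus strand). Capitals mark matches to the motifs described after them.
Fos: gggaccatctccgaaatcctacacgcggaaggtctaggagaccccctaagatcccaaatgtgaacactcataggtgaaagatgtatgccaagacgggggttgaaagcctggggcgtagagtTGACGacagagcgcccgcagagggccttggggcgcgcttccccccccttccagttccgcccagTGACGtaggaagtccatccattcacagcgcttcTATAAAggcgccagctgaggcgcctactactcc
Jun: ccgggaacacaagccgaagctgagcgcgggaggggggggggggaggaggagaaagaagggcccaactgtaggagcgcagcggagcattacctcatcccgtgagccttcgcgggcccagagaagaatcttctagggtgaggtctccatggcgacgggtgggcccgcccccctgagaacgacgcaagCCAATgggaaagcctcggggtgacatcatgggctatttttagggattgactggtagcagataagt
Junb: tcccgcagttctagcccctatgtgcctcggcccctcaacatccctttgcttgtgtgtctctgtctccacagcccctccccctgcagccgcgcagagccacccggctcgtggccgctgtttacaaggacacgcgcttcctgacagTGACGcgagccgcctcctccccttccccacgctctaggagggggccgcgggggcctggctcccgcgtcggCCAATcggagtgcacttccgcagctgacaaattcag
Dusp1: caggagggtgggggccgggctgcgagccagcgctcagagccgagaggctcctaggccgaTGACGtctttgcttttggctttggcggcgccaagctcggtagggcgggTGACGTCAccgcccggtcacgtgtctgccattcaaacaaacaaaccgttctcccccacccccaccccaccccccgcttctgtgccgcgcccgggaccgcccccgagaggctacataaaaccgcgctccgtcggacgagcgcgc
Nr4a1: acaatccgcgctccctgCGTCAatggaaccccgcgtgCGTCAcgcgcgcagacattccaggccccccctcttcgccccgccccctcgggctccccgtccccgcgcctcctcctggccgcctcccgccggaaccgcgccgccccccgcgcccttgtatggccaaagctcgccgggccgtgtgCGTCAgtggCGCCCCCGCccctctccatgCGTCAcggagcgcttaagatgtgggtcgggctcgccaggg

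Motifs were searched on both strands of these windows and of all 32851 mouse promoters of the same length. The cAMP response element (CRE, TGACGTCA) was found in Dusp1, 143 to 136 bases before the start, and in 1.55% of all promoters. A shorter form of it (TGACG), a motif added after the sequences had been read, was found in 17.8% of promoters, and 4 or more times in 0.137%. It occurred 4 times each in Nr4a1, Nr4a2 and Nr4a3, 3 times in Dusp1 (2 of them within the full element), 2 times in Fos, once each in Fosb and Junb, and in neither Jun nor Jund. The 3 NR4A promoters thus held the short form more often than nearly all others.

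A TATA motif (TATAAA) stood 33 to 28 bases before the start of Fos, and further upstream in Nr4a2 at 164 to 159 bases on the minus strand, and 12.4% of promoters held one. CCAAT was found in Jun at 65 to 61 bases and in Junb at 36 to 32 bases, and in 33.8% of promoters. An EGR motif (GCGNGGGCG) was found in Fosb, in Nr4a2 and, on the minus strand, in Nr4a1 at 60 to 52 bases, and in 4.7% of promoters. The AP-1 motif (TGANTCA, 6.75% of promoters), the NR4A motif NBRE (AAAGGTCA, 1.34%) and the CArG box (1.47%) had no exact match in any of the 9 windows. A match describes the letters only. The lack of an exact match does not cover variant letters or bases outside these windows.

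**Figure D1:**
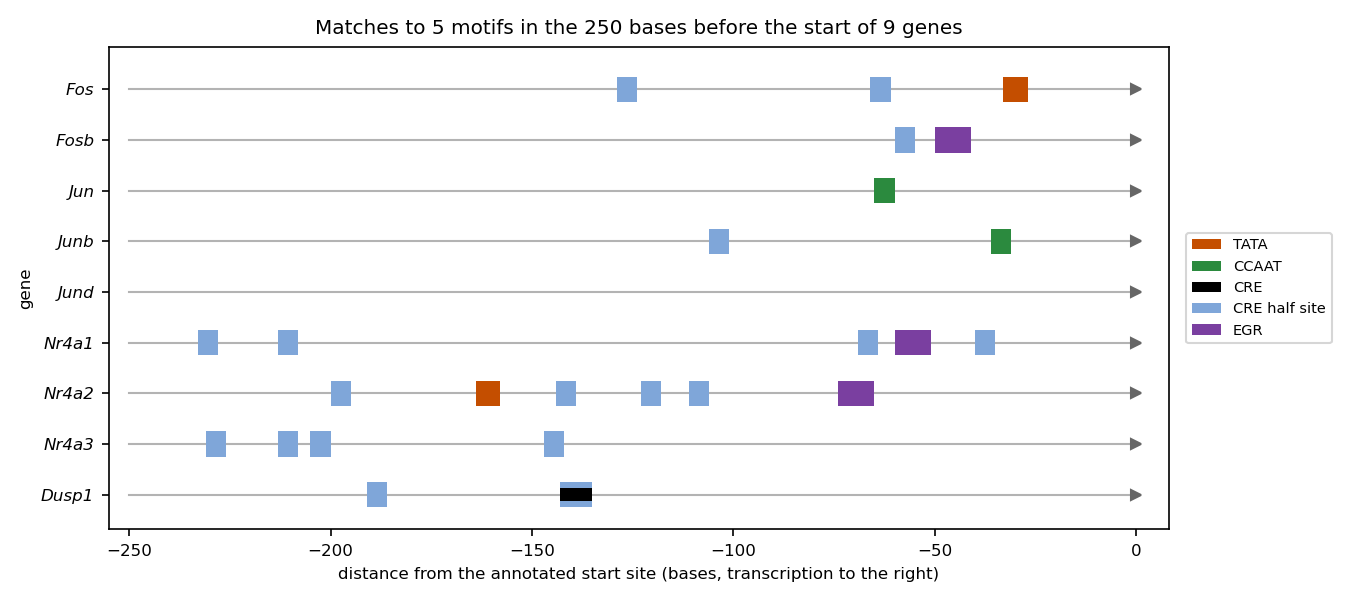
Matches to 5 motifs in the 250 bases before the annotated start of 9 genes, with distance from the start in bases on the horizontal axis and 1 gene per line; the arrow marks the start. The 3 Nr4a genes carry 4 matches to TGACG each, Dusp1 carries the full CRE 143 to 136 bases before its start, and Jund has no match. Starts are those of RefSeq, and those of Dusp1 and Nr4a3 lie inside the gene spans used for counting.

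Per kilobase of exon, Junb had the highest level of the 10 genes in all 4 groups. It stood at 50.1 ± 15.2 CPM per kb in cKO iILC1, 65.1 ± 37.6 in control iILC1, 42.1 ± 11.7 in cKO iNK and 76.5 ± 55.6 in control iNK (SD, n = 4, 3, 4 and 3). Fosb had the lowest, at 0.067, 0.12, 0.22 and 0.19 CPM per kb in the same groups. Between them the order changed with the group. In cKO iILC1, Jund, Nr4a1, Dusp1 and Egr1 followed at 15.6 to 6.28 CPM per kb, and Jun, Nr4a2, Nr4a3 and Fos at 2.75 to 1.27. In control iILC1 the order after Junb was Dusp1, Jund, Nr4a1, Egr1, Fos, Jun, Nr4a2 and Nr4a3, at 16.0 to 1.94 CPM per kb. In cKO iNK it was Nr4a1, Jund, Egr1, Nr4a2, Dusp1, Fos, Jun and Nr4a3, at 16.0 to 1.496 CPM per kb. In control iNK it was Dusp1, Jund, Nr4a1, Fos, Egr1, Nr4a2, Jun and Nr4a3, at 19.1 to 1.44 CPM per kb. Most of these neighbours lay closer together than the SD of their libraries. The steps that exceeded it were Junb over the next gene and the last gene over Fosb in each group, Egr1 over Jun in cKO iILC1, Nr4a1 over Egr1 in control iILC1, Egr1 over Nr4a2 in cKO iNK and Jund over Nr4a1 in control iNK.

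**Figure D2:**
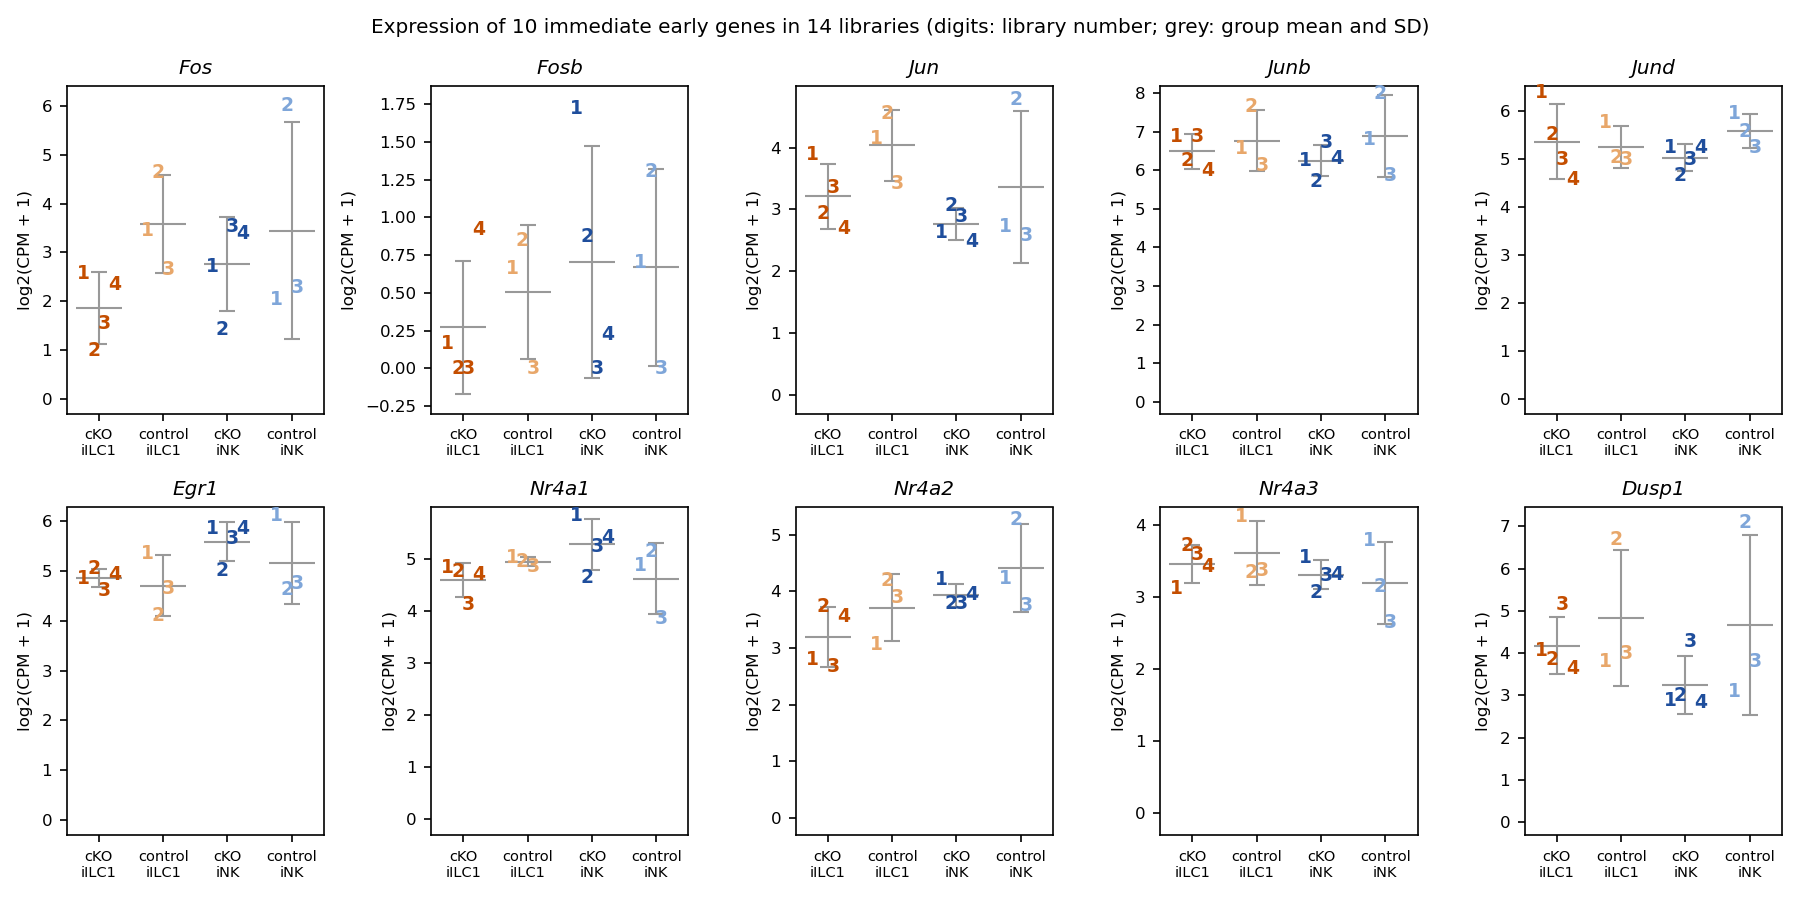
Level of each gene as log2(CPM + 1) in the 14 libraries, with groups on the horizontal axis, digits giving the library number, and grey bars giving the group mean and SD. Library 2 of both control groups is the highest of its group for Fos, Jun, Junb, Nr4a2 and Dusp1 and the lowest for Egr1.

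Fos (ENSMUSG00000021250, chr12:85473890-85477273) encodes the AP-1 subunit best known as a marker of recent stimulation. All gene positions are on mm10 and span exons and introns. It stood at 4.97, 0.98, 1.91 and 4.07 CPM in cKO iILC1, against 9.94, 24.0 and 5.31 CPM in control iILC1. The 4 cKO libraries were all below the 3 control libraries. In iNK it stood at 5.51, 1.66, 10.5 and 9.54 CPM in cKO, against 3.12, 63.4 and 3.84 CPM in control. There a single control library lay above all cKO libraries and the other two lay among them. The log2 fold change of cKO over control was -2.12 in iILC1 (SE 0.727, 95% interval -3.61 to -0.63, edgeR adjusted p = 0.944). In iNK it was -1.76 (SE 0.674, 95% interval -3.14 to -0.38, edgeR adjusted p = 0.447). These values rested on few reads, 8 to 387 counts per library. With no filter on low counts, Fos passed the threshold in both cell types (edgeR adjusted p = 0.0218 in iILC1 and 0.0253 in iNK).

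The sign of the Fos value in iNK was set by that 1 library. Without both control libraries numbered 2, a setting added after the data had been seen, the log2 fold change of cKO over control was 0.98 in iNK (95% interval -0.28 to 2.23, edgeR adjusted p = 0.947). In iILC1 it was -1.32 (95% interval -2.52 to -0.13, edgeR adjusted p = 1). Between cell types, iILC1 over iNK was -1.19 in cKO (95% interval -2.59 to 0.21) and -0.83 in control (95% interval -2.32 to 0.66), with overlapping libraries in both genotypes. Without the same libraries the control value was 1.10 (95% interval -0.32 to 2.53).

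Fosb (ENSMUSG00000003545, chr7:19302721-19310045), a paralogue of Fos with a similar induction, was close to the limit of detection. It had 0.121, 0, 0 and 0.89 CPM in cKO iILC1 and 0.585, 0.795 and 0 CPM in control iILC1. In iNK it had 2.29, 0.832, 0 and 0.17 CPM in cKO and 0.625, 1.47 and 0 CPM in control. It was at 0 counts in 5 of 14 libraries, where 3 counts, the upper limit that a count of 0 allows, correspond to 0.367 to 0.550 CPM. The largest count was 15. Fitted with no filter on low counts, cKO over control was 0.17 on the log2 scale in iNK and -0.73 in iILC1, and iILC1 over iNK was -1.56 in cKO and -0.67 in control, with SE of 0.99 to 1.18. None of these passed the threshold (edgeR adjusted p = 0.798 to 1).

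Jun (ENSMUSG00000052684, chr4:95049034-95052222) encodes the founding partner of FOS. It stood at 13.8, 6.61, 9.23 and 5.47 CPM in cKO iILC1, against 16.7, 22.5 and 9.71 CPM in control iILC1. In iNK it stood at 5.20, 7.35, 6.37 and 4.60 CPM in cKO, against 5.62, 26.5 and 4.96 CPM in control. The groups overlapped in both cell types, and the control iNK libraries other than number 2 lay inside the cKO range. The log2 fold change of cKO over control was -0.89 in iILC1 (95% interval -1.77 to -0.0015, edgeR adjusted p = 0.979) and -1.07 in iNK (95% interval -1.97 to -0.18, edgeR adjusted p = 0.503). With both control libraries numbered 2 left out, these became -0.57 in iILC1 and 0.15 in iNK. Between cell types, iILC1 over iNK was 0.58 in cKO (95% interval -0.26 to 1.42) and 0.40 in control (95% interval -0.55 to 1.34). Leaving out control iNK library 2 alone moved the control value to 1.67 with an edgeR adjusted p of 0.0454, the only call of Jun under any alternative run. The antisense transcript Junos overlaps Jun and had 506 counts in all, against 911 for Jun. The library kit does not mark strand, so reads of that pair cannot be told apart.

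Junb (ENSMUSG00000052837, chr8:84976909-84978748) encodes an AP-1 subunit that can hold JUN activity down. It stood at 115, 74.7, 117 and 62.2 CPM in cKO iILC1, against 92.7, 198 and 68.1 CPM in control iILC1. In iNK it stood at 75.4, 51.7, 104 and 78.0 CPM in cKO, against 110, 255 and 57.1 CPM in control. Library 2 was the highest control library in each cell type, and all groups overlapped. For cKO over control the log2 fold change was -0.38 in iILC1 (95% interval -1.11 to 0.36) and -0.86 in iNK (95% interval -1.59 to -0.13, edgeR adjusted p = 0.519). With both control libraries numbered 2 left out, these were 0.20 in iILC1 and -0.11 in iNK (95% interval -0.75 to 0.52). For iILC1 over iNK the value was 0.25 in cKO (95% interval -0.43 to 0.94) and -0.23 in control (95% interval -1.02 to 0.56).

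Jund (ENSMUSG00000071076, chr8:70697739-70700616) encodes the JUN protein that cells hold at a steady level. It stood at 81.9, 44.2, 30.9 and 22.8 CPM in cKO iILC1, against 53.2, 31.6 and 30.6 CPM in control iILC1. The iNK values were 36.7, 24.1, 30.5 and 36.8 CPM in cKO, against 60.9, 46.3 and 36.9 CPM in control. All 4 cKO iNK libraries were below the 3 control iNK libraries, with the nearest pair at 36.8 CPM in cKO and 36.9 CPM in control. It was the only one of the 9 tested members whose iNK groups did not overlap, as for 8.84% of all genes. The log2 value for cKO over control was 0.23 in iILC1 (95% interval -0.40 to 0.87) and -0.58 in iNK (95% interval -1.21 to 0.04, edgeR adjusted p = 0.67). Without both control libraries numbered 2 the iNK value was -0.61 (95% interval -1.34 to 0.12). Jund in control iNK library 2 was at 0.95 of the mean of the other control iNK libraries, so leaving it out could move the value little. That library held the highest Fos, Jun and Junb of its group, so a contrast with these genes was set by the choice of library. For iILC1 over iNK the Jund value was 0.49 in cKO (95% interval -0.09 to 1.07) and -0.33 in control (95% interval -1.01 to 0.35).

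Egr1 (ENSMUSG00000038418, chr18:34859823-34864984) encodes a zinc finger factor induced through ERK signalling. It stood at 27.7, 32.2, 23.4 and 29.2 CPM in cKO iILC1, against 39.5, 16.3 and 24.2 CPM in control iILC1. The iNK values were 56.7, 31.2, 49.0 and 56.7 CPM in cKO, against 68.1, 23.6 and 25.8 CPM in control. In both control groups library 1 was the highest and library 2 the lowest. For cKO over control the log2 fold change was 0.09 in iILC1 (95% interval -0.55 to 0.74) and 0.31 in iNK (95% interval -0.32 to 0.94). For iILC1 over iNK the value was -0.78 in cKO (95% interval -1.36 to -0.20, edgeR adjusted p = 0.193) and -0.57 in control (95% interval -1.26 to 0.12, edgeR adjusted p = 0.329). In cKO, 3 of the 4 iNK libraries were above every iILC1 library and the fourth fell within the iILC1 range.

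Nr4a1 (ENSMUSG00000023034, chr15:101266846-101274792) encodes NUR77, widely used as a readout of antigen receptor signalling in T cells. It stood at 27.5, 26.2, 16.4 and 25.04 CPM in cKO iILC1, against 31.9, 29.8 and 28.03 CPM in control iILC1. The iNK values were 56.0, 24.0, 36.9 and 41.6 CPM in cKO, against 28.4, 34.2 and 13.4 CPM in control. In iILC1 the 4 cKO libraries were all below the 3 control libraries, while in iNK 3 of 4 cKO libraries were above all control libraries. With Fos, it was 1 of the 2 of 9 tested members whose iILC1 groups did not overlap, as for 5.48% of all genes. The log2 fold change of cKO over control was -0.33 in iILC1 (95% interval -0.90 to 0.25, edgeR adjusted p = 0.979) and 0.64 in iNK (95% interval 0.07 to 1.22, edgeR adjusted p = 0.566).

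The test of that contrast, taken as the genotype effect of iILC1 less that of iNK, gave -0.97 for Nr4a1 on the log2 scale (SE 0.397, 95% interval -1.78 to -0.16, edgeR adjusted p = 0.705). It was the only member with an unadjusted p under 0.05 in this contrast, beside 7.06% of all genes. With both control libraries numbered 2 left out, it was -1.24 (95% interval -2.19 to -0.30, edgeR adjusted p = 0.999). Fos was at -2.30 there (95% interval -4.04 to -0.56, edgeR adjusted p = 0.999). These 2 members then had an unadjusted p under 0.05, beside 3.55% of all genes. Between cell types, iILC1 over iNK for Nr4a1 was -0.73 in cKO (95% interval -1.26 to -0.21, edgeR adjusted p = 0.163) and 0.24 in control (95% interval -0.38 to 0.86). The control iILC1 libraries were close together, with a coefficient of variation of 6.45%, against 42.3% in control iNK.

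Nr4a2 (ENSMUSG00000026826, chr2:57106830-57124003) encodes NURR1, best known for its role in dopamine neurons. It stood at 5.93, 12.4, 5.41 and 10.8 CPM in cKO iILC1, against 7.31, 17.3 and 13.9 CPM in control iILC1. The iNK values were 17.6, 12.8, 12.9 and 14.5 CPM in cKO, against 17.8, 37.7 and 12.5 CPM in control. All 4 cKO iILC1 libraries were below the 4 cKO iNK libraries. Nr4a2 was the only one of 9 members that did not overlap between cKO iILC1 and cKO iNK, as for 6.61% of all genes. The log2 fold change of iILC1 over iNK was -0.73 in cKO (95% interval -1.40 to -0.07, edgeR adjusted p = 0.392) and -0.80 in control (95% interval -1.57 to -0.03, edgeR adjusted p = 0.222). The genotype values, cKO over control, were -0.58 in iILC1 (95% interval -1.31 to 0.15) and -0.65 in iNK (95% interval -1.34 to 0.04). When both control libraries numbered 2 were left out, the iNK value was -0.07.

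Nr4a3 (ENSMUSG00000028341, chr4:48045153-48086447), which encodes NOR1, another receptor of the family, had the smallest spread within groups of the tested members. It stood at 7.63, 12.1, 11.0 and 9.66 CPM in cKO iILC1, against 16.4, 9.14 and 9.34 CPM in control iILC1. Among iNK libraries it was at 10.7, 7.35, 8.84 and 8.94 CPM in cKO, against 12.8, 7.86 and 5.28 CPM in control. The 4 groups shared a common range, and library 1 was the highest in both control groups, as for Egr1. The log2 value for cKO over control was -0.19 in iILC1 (95% interval -0.85 to 0.47) and 0.05 in iNK (95% interval -0.61 to 0.71). For iILC1 over iNK it was 0.17 in cKO (95% interval -0.43 to 0.77) and 0.41 in control (95% interval -0.30 to 1.12).

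Dusp1 (ENSMUSG00000024190, chr17:26505590-26508519) encodes the inducible phosphatase that switches off stress kinases. It stood at 15.6, 13.5, 34.7 and 11.4 CPM in cKO iILC1, against 12.9, 101 and 15.02 CPM in control iILC1. Among iNK libraries it was at 6.42, 6.93, 18.5 and 6.13 CPM in cKO, against 7.497, 134 and 13.0 CPM in control. The other two control libraries of each cell type lay within the cKO range, and library 3 was the highest cKO library in both cell types. For cKO over control the log2 fold change was -1.22 in iILC1 (95% interval -2.56 to 0.13, edgeR adjusted p = 0.979). In iNK it was -2.44 (SE 0.672, 95% interval -3.82 to -1.07, edgeR adjusted p = 0.14), the smallest adjusted p of any member in any comparison.

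When both control libraries numbered 2 were left out, the Dusp1 value for cKO over control was 0.42 in iILC1 (95% interval -0.51 to 1.35) and -0.11 in iNK (95% interval -1.03 to 0.81). The iNK value passed the threshold in some alternatives that kept the control iNK library 2. Its edgeR adjusted p was 1.61e-05 with no filter on low counts and 0.00776 without the 2 libraries lowest on the first component. It was 0.0145 when only the libraries of both iNK groups were fitted and 0.028 without control iNK library 1. Between cell types, iILC1 over iNK was 0.98 in cKO (95% interval -0.32 to 2.28, edgeR adjusted p = 0.754) and -0.25 in control (95% interval -1.67 to 1.17). The cKO value uses the control libraries for the shared estimate of spread and the scaling only. When those numbered 2 were left out its interval was 0.24 to 1.72, with an edgeR adjusted p of 0.23.

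Across the 9 tested members, the median log2 fold change of cKO over control was -0.38 in iILC1, where the median of all genes was 0.015, and -0.65 in iNK, where that of all genes was 0.06. The value was below 0 for 7 of 9 members in iILC1 and 6 of 9 in iNK. An unadjusted p under 0.05 was reached by 2 members in iILC1 (Fos and Jun), beside 4.52% of all genes, and by 5 in iNK (Fos, Jun, Junb, Nr4a1 and Dusp1), beside 7.87%. When both control libraries numbered 2 were left out, the medians were -0.31 in iILC1 and -0.02 in iNK, with 0 members called and 1 member each at that level, beside 2.48% of all genes in iILC1 and 6.05% in iNK.

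For iILC1 over iNK, the median of the 9 members was 0.17 in cKO, against 0.01 for all genes, and -0.25 in control, against 0.16 for all genes. The value was above 0 for 5 of 9 members in cKO and 3 of 9 in control. An unadjusted p under 0.05 was reached in cKO by 3 members (Egr1, Nr4a1 and Nr4a2), all lower in iILC1, beside 9.97% of all genes. In control it was reached by Nr4a2 alone, beside 20.8%. When both control libraries numbered 2 were left out, 5 members reached it in cKO, with Fos (-1.19), Egr1, Nr4a1 and Nr4a2 lower and Dusp1 (0.98) higher in iILC1, beside 9.3% of all genes. In control it was then reached by Jun (1.30), which was higher in iILC1, beside 9.36%. The medians were 0.17 in cKO and 0.45 in control there, and 0 members were called in either. No member had control groups that did not overlap between cell types, beside 25% of all genes. The genotype comparisons and the cell type comparisons share libraries, so their values for 1 member are not independent.

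**Figure D3:**
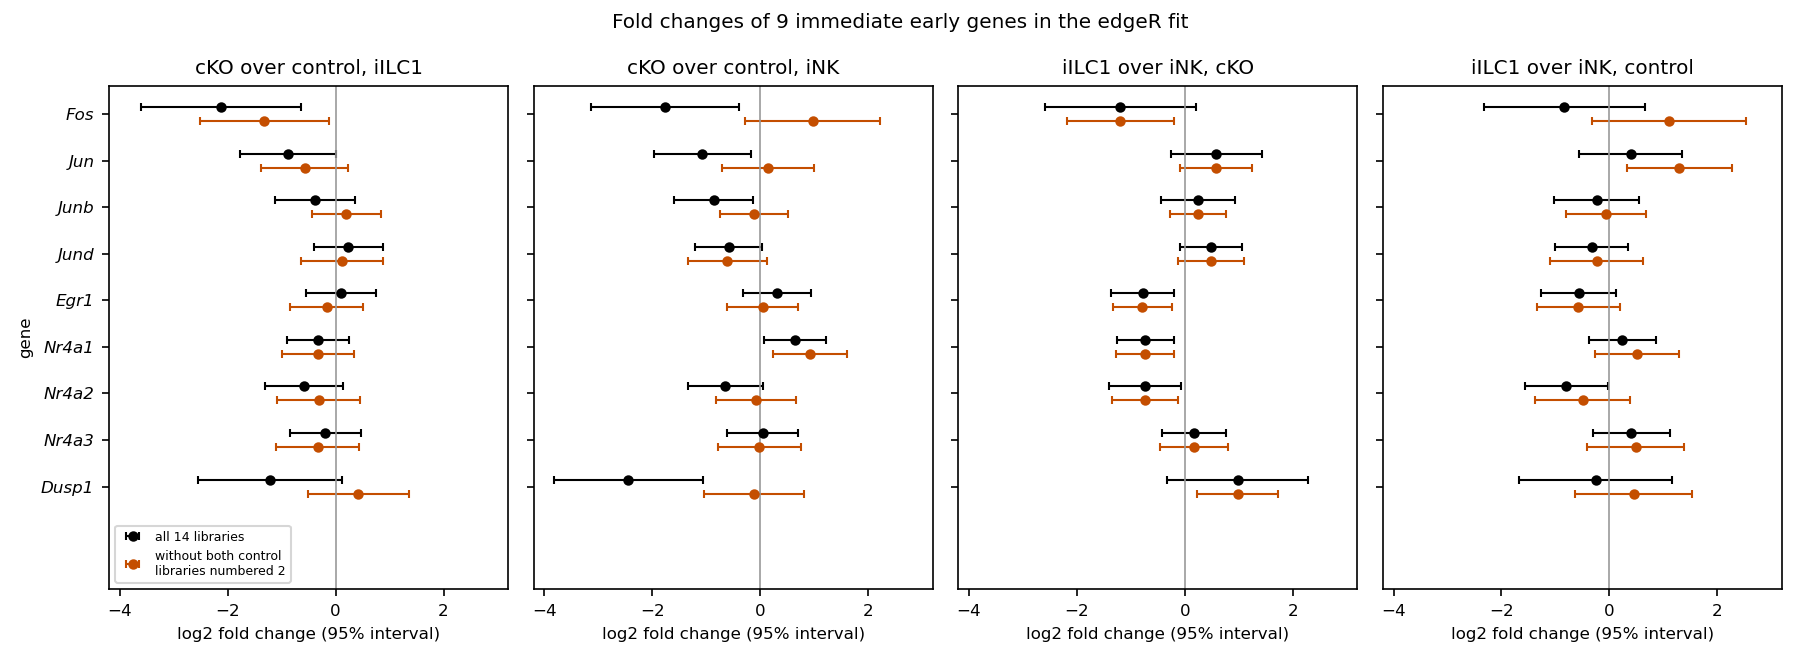
Log2 fold changes of the 9 tested genes with 95% intervals, in 4 comparisons on the horizontal axes, for all 14 libraries (black) and without both control libraries numbered 2 (orange). For cKO over control in iNK without these libraries, Fos was at 0.98 and Dusp1 at -0.11. Jund, at 0.95 of the mean of the others in control iNK library 2, was at -0.61.

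The library numbered 2 set the upper end of the control range for 5 of the 9 tested members in both cell types. Relative to the mean of the other two control libraries, Dusp1 was 7.27 times as high in control iILC1 library 2 and 13.1 times as high in control iNK library 2. Fos was 3.15 and 18.2 times as high in these libraries, Junb 2.47 and 3.04 times, Jun 1.70 and 5.01 times, and Nr4a2 1.63 and 2.49 times. Egr1 was at 0.51 and 0.50 of the mean of the others. Jund was at 0.75 and 0.95 of it, Nr4a3 at 0.71 and 0.87, and Nr4a1 at 1.00 and 1.64. Fos, Jun, Junb, Nr4a2 and Dusp1 were thus above the mean of the others in both libraries, and Jund, Egr1 and Nr4a3 were below it in both.

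Among 11100 genes with a mean of at least 10 CPM, 6 were more than 2 times as high in library 2 as the mean of the others in both control groups, which is 0.0541%. Of these 6, 3 were members, Fos, Junb and Dusp1, of 8 members at that level. When genes were ordered by the geometric mean of both ratios, Dusp1 was first, Fos second, Jun at position 6, Junb at 7, Nr4a2 at 11 and Egr1 at 11088. The genes beside them at the top included Rgs1 and Rgs2, which quench G protein signalling, at positions 3 and 4, Irs2 at 8, Ppp1r15a, which encodes the stress-induced phosphatase subunit GADD34, at 9, and Sik1, a target of cAMP signalling, at 10. These non-member genes were chosen after their values were seen, and the order describes 2 libraries. Over all 11100 genes the deviations of both libraries from their group means were not alike (Pearson r = -0.08, across genes). The labels do not say that libraries with the same number came from 1 mouse or 1 day.

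Other measures did not single out both libraries in the same way. Heat shock chaperone genes summed to 2222 CPM in control iILC1 library 2 against 3048 and 3152 in the other two, and to 4732 CPM in control iNK library 2 against 4149 and 4318. Neutrophil and monocyte markers summed to 153 CPM in control iILC1 library 2 against 219 and 146, and to 606 CPM in control iNK library 2 against 563 and 243. A list of 23 other immediate early genes summed to 2471 CPM in control iILC1 library 2 against 2793 and 2429, and to 3841 CPM in control iNK library 2 against 3052 and 2336. Of these 23 genes, 18 were highest in library 2 of control iNK and 3 in library 2 of control iILC1. For the 11100 genes with a mean of at least 10 CPM these counts were 3392 and 1857. In both control groups 3 of the 23 were highest in library 2, beside 4.05% of the 11100, and 0 were more than 2 times as high in both. Of 11 other AP-1 genes, 1 was, the small MAF factor Maff, at 2.90 times in iILC1 and 2.73 times in iNK. Total counts of these libraries were neither the highest nor the lowest of their groups. The labels give no sort day or handling time.

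**Figure D4:**
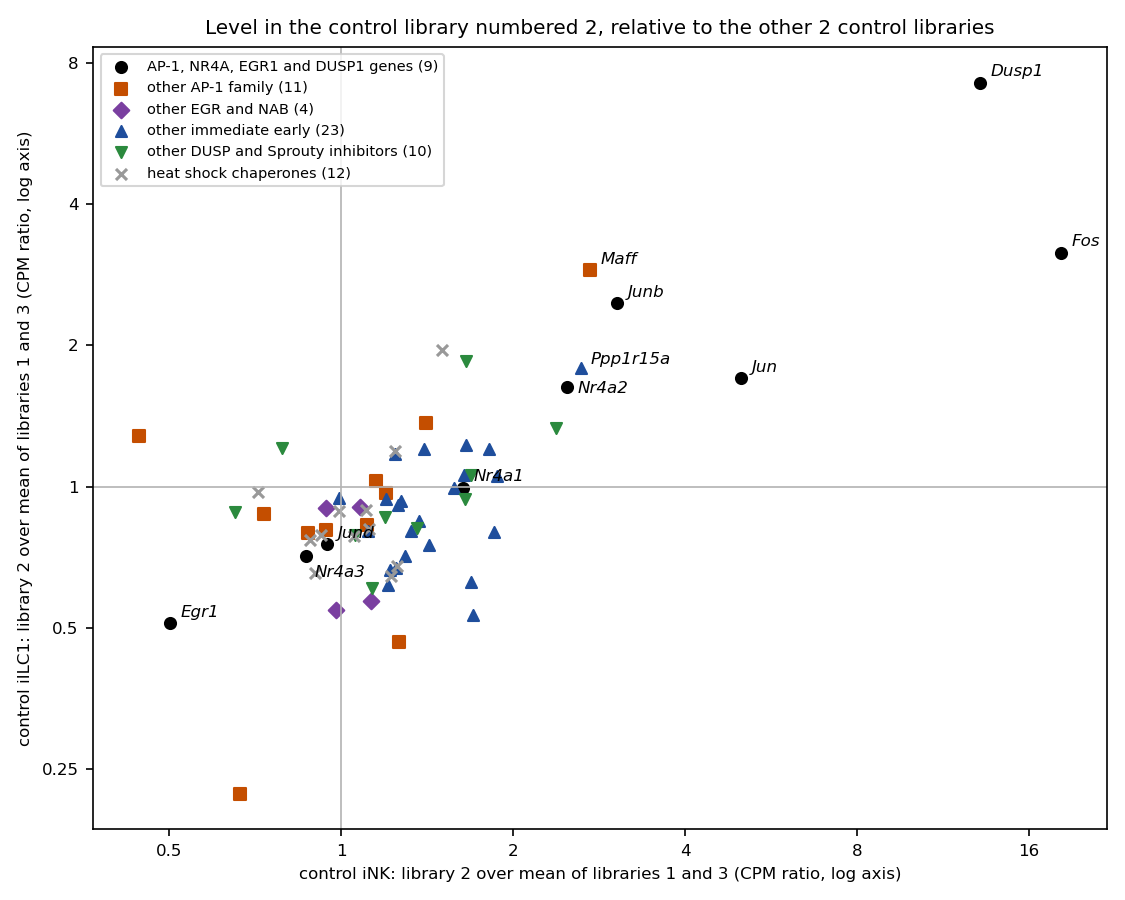
Level in library 2 of each control group divided by the mean of libraries 1 and 3, for control iNK (horizontal, log axis) and control iILC1 (vertical, log axis), with 1 point per gene and symbols for 6 gene lists. Dusp1 and Fos lie furthest to the upper right, at 13.1 and 7.27 and at 18.2 and 3.15, and Egr1 lies at 0.50 and 0.51.

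Within groups, the 8 members with a mean of at least 10 CPM varied more than most genes at that level, at the 91.2th to 99.9th percentile. The SD of log2(CPM + 1) around the group means was 1.31 for Dusp1 and 1.28 for Fos, at the 99.9th percentile of the 11100 genes, whose median SD was 0.31. It was 0.69 for Jun (99.3th percentile), 0.68 for Junb (99.2th), 0.54 for Nr4a2 (97.1th), 0.52 for Egr1 (96.4th) and Jund (96.3th), and 0.45 for Nr4a1 (91.2th). Nr4a3, just under 10 CPM on average, had an SD of 0.37. Over the 12 libraries without both control libraries numbered 2, the SD was 0.62 for Dusp1 (98.3th percentile), 0.77 for Fos (99.5th), 0.40 for Jun (81.8th) and 0.45 for Junb (90.4th).

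The members' deviations from group means were set against each other. Over 14 libraries, Fos, Jun, Junb and Dusp1 had pairwise Pearson correlations of 0.74 to 0.83, and Egr1 and Nr4a3 had 0.80. Egr1 and Dusp1 had -0.66, and Nr4a1 had 0.53 with Fos and 0.45 with Egr1. Without both control libraries numbered 2, over 12 libraries, the pairs among Fos, Jun, Junb and Dusp1 had 0.0909 to 0.515, with the lowest value for Fos and Jun, so their high values rested on these 2 libraries. Egr1 and Nr4a3 had 0.85 there. Egr1 and Nr4a1 had 0.88, above their value over all 14, so that pair also moved with these 2 libraries. Jun and Nr4a2 had -0.77. These are descriptions, since the deviations within a group sum to about 0 and all genes of a library share its depth and composition.

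**Figure D5:**
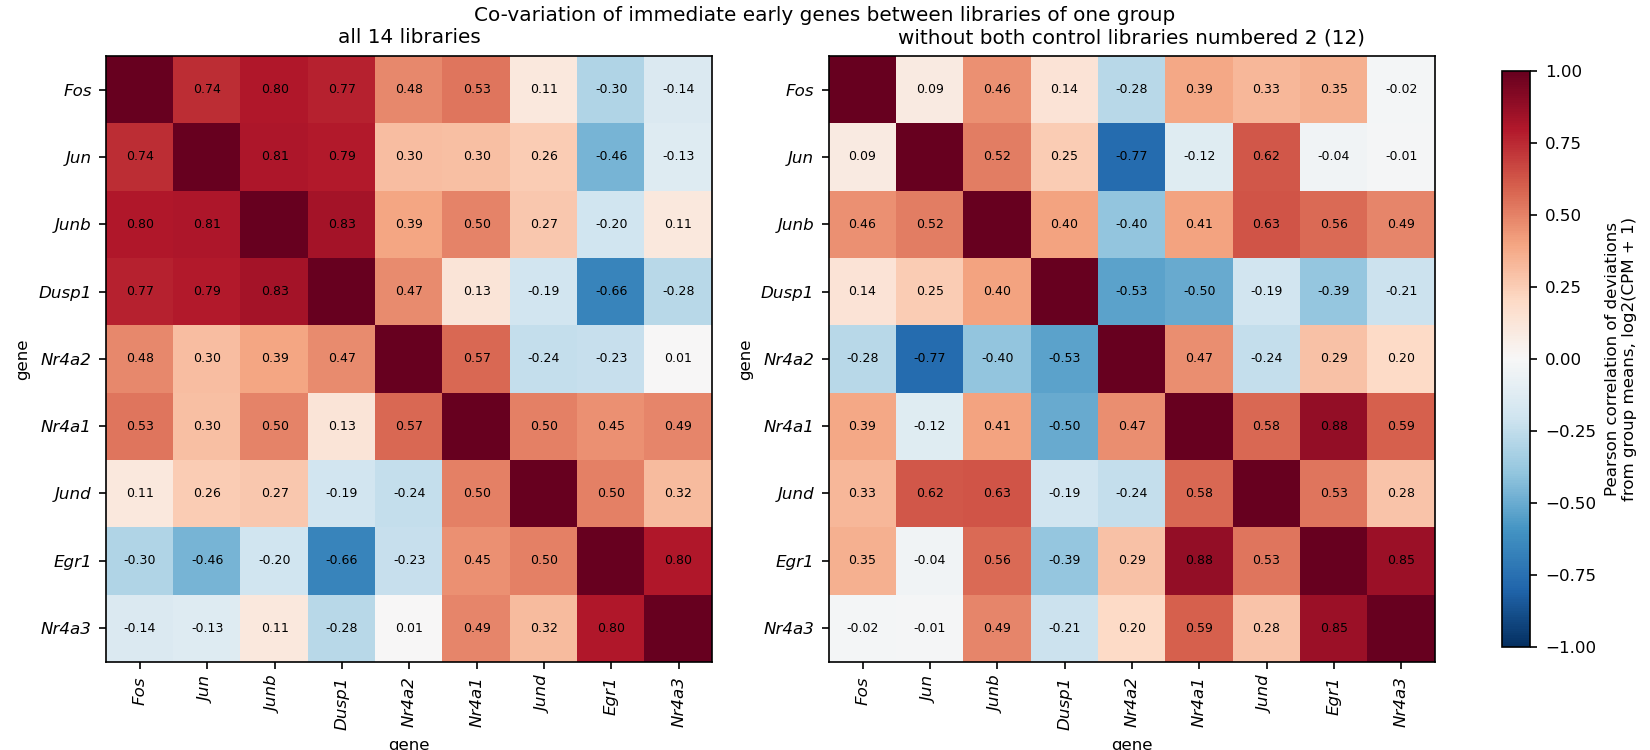
Pearson correlations between genes of their deviations from group means in log2(CPM + 1), over all 14 libraries (left) and over the 12 libraries without both control libraries numbered 2 (right). The block of Fos, Jun, Junb and Dusp1 at 0.74 to 0.83 on the left is at 0.0909 to 0.515 on the right. The lowest pair there is Fos and Jun and the highest Jun and Junb. Egr1 and Nr4a3 are at 0.80 on the left and 0.85 on the right.

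The genes outside the members whose level followed the members' mean most closely were taken from 10181 genes with a mean of at least 10 CPM. They were Tatdn2 (Pearson r = 0.86 over 14 libraries with the mean z-score of the members), Vegfc (0.83), Fosl2 (0.81), Ttc7b (0.81), Pfkfb3 (0.81) and Lrig2 (0.81). Fosl2, itself an AP-1 subunit, stood at 23.0 to 39.8 CPM in cKO iILC1 and 26.2 to 41.3 in control iILC1, and at 26.5 to 34.9 CPM in cKO iNK and 25.1 to 54.2 in control iNK. None of the 6 was called in any of the 5 comparisons, the smallest edgeR adjusted p being 0.444 for Fosl2 between cell types in control.

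Some relatives and partners of the members were called between cell types, and for genotype only genes of activation output were. By genotype, none of 11 other AP-1 genes, 4 EGR and NAB genes and 23 other immediate early genes were called in either cell type. Neither were any of 10 DUSP and Sprouty genes or 23 genes of the upstream kinases and SRF, TCF and CREB factors. The same held for 9 calcineurin and NFAT genes and 12 heat shock genes. Of all genes, 0.408% were called in iNK and 0.0482% in iILC1, so 0 calls in lists of this size lie near that share. Under the alternatives, 1 of the other immediate early genes was called in iNK in 6 of 17 and in iILC1 in 2 of 17, and 1 DUSP or Sprouty gene in iNK in 1 of 17, with DESeq2. Their median log2 fold changes ran from -0.39 (DUSP and Sprouty) to 0.06 (EGR and NAB) in iNK and from -0.07 (EGR and NAB) to 0.39 (other AP-1) in iILC1.

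Between cell types in cKO, 1 of 11 other AP-1 genes, 1 of 10 DUSP and Sprouty genes and 4 of 23 other immediate early genes were called. So was 1 of 12 heat shock genes, and none of the other lists of relatives had a call, beside 3.42% of all genes. Maff rose to 4.77 ± 2.73 CPM in cKO iILC1, against 0.337 ± 0.282 in cKO iNK (log2 fold change 3.63, SE 0.75, edgeR adjusted p = 0.0026). The cKO iNK level was near the limit of detection, since 3 counts correspond to 0.256 to 0.459 CPM in those libraries. With a filter at 5 CPM, 0 of the other AP-1 genes were called in this comparison. Dusp7, a cytoplasmic ERK phosphatase, rose to 116 ± 37.0 CPM in cKO iILC1, against 39.1 ± 7.53 in cKO iNK (1.57, edgeR adjusted p = 3.02e-05). Klf2, which holds lymphocytes in quiescence, fell to 119 ± 32.8 CPM in cKO iILC1, against 227 ± 56.3 in cKO iNK (-0.94, edgeR adjusted p = 0.00768). Each of these held without any 1 of the 8 libraries. The calls of Gadd45b (1.43) and Nfkbia (0.82), a stress sensor and the inhibitor of NF-κB, were lost without cKO iNK library 1 or 3, and that of Gadd45b also without cKO iILC1 library 1, with adjusted p up to 0.0804 and 0.077. The chaperone partner Bag3 (-0.94) was lost in 6 of 8 such fits. The remaining call among the other immediate early genes, named after its values were seen, was Tnfaip3 (0.80, edgeR adjusted p = 0.0357). Its call was lost without cKO iNK library 1, where 1 of the 23 other immediate early genes, Klf2, was called.

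Between cell types in control, 1 of 11 other AP-1 genes, 2 of 23 other immediate early genes and 3 of 12 heat shock genes were called. All were lower in iILC1, and none of the other lists of relatives had a call, beside 3.91% of all genes. The AP-1 repressor Jdp2 fell to 16.8 ± 3.74 CPM in control iILC1, against 37.8 ± 12.4 in control iNK (-1.17, edgeR adjusted p = 0.013). Its call was lost without control iNK library 1 or control iILC1 library 2. Klf10, a target of TGF-β, fell to 78.4 ± 22.1 CPM in iILC1, against 175 ± 32.5 in iNK (-1.16, edgeR adjusted p = 0.0161). Zfp36, which speeds the decay of cytokine mRNAs, was lower by a log2 fold change of -0.99 (edgeR adjusted p = 0.0355). The chaperones Hspe1, Hspd1 and Hsp90aa1 were lower by -1.06, -0.96 and -0.96 (edgeR adjusted p = 0.0413, 0.0214 and 0.0161). These 5 were called in 1 to 4 of the 6 fits that each left out 1 library, and lost among others without control iILC1 library 2.

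Genes that lymphocytes turn on after activation, many of them AP-1 targets, were called in 4 comparisons, among 13 listed. Between cell types, 5 of 13 were called in cKO, 4 higher and 1 lower in iILC1, beside 3.42% of all genes, and 2 of 13 in control, both higher, beside 3.91%. In cKO, Tnf rose to 15.2 ± 4.42 CPM in iILC1, against 2.78 ± 1.22 in iNK (log2 fold change 2.48, edgeR adjusted p = 6.97e-06). Ifng (2.21) and the chemokine gene Xcl1 (1.59) rose as well (edgeR adjusted p = 4.27e-05 and 5e-04), and all 3 held without any 1 of the 8 libraries. The remaining 2 calls, outside the 3 largest and named after their values were seen, were Tnfrsf9, which encodes the receptor 4-1BB, at 1.23 (edgeR adjusted p = 0.00124), and the chemokine gene Ccl3. Ccl3 fell to 14.7 ± 8.34 CPM in cKO iILC1, against 40.3 ± 11.9 in cKO iNK (-1.45, edgeR adjusted p = 0.0118). In control, Tnf rose to 11.9 ± 3.32 CPM in iILC1, against 3.57 ± 0.876 in iNK (1.73, edgeR adjusted p = 0.00865), which held in all 6 such fits. The transcription factor Irf4 was at 1.68 there (edgeR adjusted p = 0.0118) and lost its call without control iNK library 1 or 2 or control iILC1 library 2. Of 9 T cell markers tested, 3 were called higher in iILC1 in cKO (Cd3e at a log2 fold change of 2.94, Cd4 at 1.80 and Trbc2 at 1.31) and 4 in control (Cd3e at 4.27, Cd5 at 2.59, Trac at 1.43 and Cd3g at 1.30). All 10 listed summed to 479 to 939 CPM in cKO iILC1 and 567 to 944 in control iILC1, against 519 to 661 CPM in cKO iNK and 462 to 747 in control iNK, and their part in the cell type results was not tested.

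For genotype in iNK, 3 of the 13 were called, 1 higher and 2 lower in cKO, beside 0.408% of all genes. Irf4 rose to 9.18 ± 1.09 CPM in cKO, against 2.56 ± 0.977 in control (1.83, edgeR adjusted p = 0.0134). Ifng fell to 5.93 ± 2.64 CPM in cKO, against 18.7 ± 8.77 in control (-1.63, edgeR adjusted p = 0.0283), and the receptor gene Tnfrsf9 fell to 31.4 ± 5.54 CPM in cKO, against 67.5 ± 10.1 in control (-1.10, edgeR adjusted p = 0.0422). The Irf4 call was lost without control iNK library 1 or 2 or cKO iNK library 1 (adjusted p up to 0.121). The Ifng call was lost in 5 of the 7 fits without 1 library, controls 1 and 2 among them, and the Tnfrsf9 call in all 7 (adjusted p up to 0.243 and 0.245). Irf4 is expressed in B-lineage cells as well, whose markers were higher in cKO iNK, and their part in this call was not tested. Of 10 erythroid markers, 2 were called higher in cKO iNK, Hbb-bs at 144 ± 95.6 CPM in cKO against 6.45 ± 8.22 in control (edgeR adjusted p = 0.0354) and Hbb-bt at 26.7 ± 18.4 CPM in cKO against 0.677 ± 1.17 in control (edgeR adjusted p = 0.0175). The 10 summed to 278 to 864 CPM in cKO iNK and 351 to 424 in control iNK. Car2 made up most of the control sum and was at 231 ± 34.0 CPM in cKO against 362 ± 22.8 in control. Of the 10, 9 had a log2 fold change of cKO over control above 0 (median 2.07). Hba-a1 was among them, at 127 CPM in cKO against 6.36 in control. The part of the erythroid markers in the 3 calls was not tested. The difference of the genotype effects of Irf4, iILC1 minus iNK, was -2.47 (edgeR adjusted p = 0.0448), the 1 call of 13 in that contrast, beside 0.0778% of all genes, and was called in 2 of 14 such fits, with adjusted p up to 0.222. Without both control libraries numbered 2, none of the 3 genes was called for genotype in iNK, and with the heat shock covariate 1 of the 13 was.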

How the data were processed

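The deposited table holds whole-number read counts for each Ensembl gene, unnormalised, as the file headers and values show. Per the submitters' processing notes, the tools were Trimmomatic 0.33, HISAT2 2.1.0 and featureCounts with Subread 1.6.5, on build mm10. Which annotation release was used, whether strand was counted and how multi-mapped reads were handled are not given in the sources used here. Full-length cDNA was amplified from sorted cells with a SMART-Seq v4 kit, per the labels' protocols. Limits for a count of 0 cover counting error only. All 14 columns matched 1 sample each by title.

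Genes were kept by filterByExpr (minimum count 10, minimum total 15), which left 26990 of 46078, and a symbol was found for 97.97%. One edgeR 4.0.16 fit (R 4.3.3, TMM, 1 mean per group, quasi-likelihood F test, two-sided, 10 residual degrees of freedom, common biological coefficient of variation 30%) gave 5 contrasts, adjusted over all genes at 0.05. SE and 95% intervals were derived from the F statistic. Deviations used log2(CPM + 1). The test was tested on simulated data. Alternatives were DESeq2 1.42.0, other scalings and filters, covariates, a replicate block and left-out libraries. Olfactory and vomeronasal receptor genes were summed as a background covariate. The motif TGACG and the setting without both control libraries numbered 2 were added after the data were seen.

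The members, lists and rules were chosen with earlier results of these data known. Named were all members, up to 3 called genes of each list of relatives per comparison by fold change, and the 6 genes most correlated with the members' mean, leaving out predicted and receptor-segment genes. The labels do not say that replicates came from separate mice, so a p-value here reflects the spread among these libraries, which may be technical, and replicates differed by more than sampling noise (chi-square per degree of freedom 4.97 to 27.1). Promoter sequences are RefSeq's on GRCm38.p6.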

Additional observations from a re-analysis of the deposited data

Results flagged for a closer look

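Of 20 sets of 4 libraries examined for a single distant library, 2 held one, where chance gives about 1 in 20. Dusp1 stood at 18.46 CPM in cKO iNK library 3, and the other cKO iNK libraries at 6.132 to 6.933 CPM. Fosb stood at 0.8898 CPM, 7 counts, in cKO iILC1 library 4, and the other cKO iILC1 libraries at 0 to 0.1211 CPM. The control groups, with 3 libraries each, are too small for this test, so the high control libraries numbered 2 could not be examined by it.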

How the results depend on the processing

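Of the 45 member values, 31 kept their sign under every alternative that left out no single library, and 14 did not. For cKO over control in iNK, 2 members were called with no filter (Fos and Dusp1), 1 with the background covariate (Nr4a1, higher in cKO), 1 without the 2 libraries lowest on the first component (Dusp1) and 1 with only the groups compared (Dusp1). Over all genes these settings called 191, 356, 164 and 220, against 110 as reported. Leaving out 1 library gave 0 to 1 there, and 80 genes in all in the fit that called 1 (without control iNK library 1). In iILC1, 1 was called with no filter (Fos), among 47 genes against 13. For iILC1 over iNK in control, leaving out 1 library gave 0 to 1, the call (Jun) coming without control iNK library 2, among 639 genes against 1056. In cKO, 1 was called with the background covariate (Jund, among 1640 genes) and 1 with only the groups compared (Egr1, among 1006), against 923. The causes were not tested. Without both control libraries numbered 2, signs turned in iNK for Fos (0.98), Jun (0.15) and Nr4a3 (-0.0174), in iILC1 for Junb (0.20), Egr1 (-0.17) and Dusp1 (0.42), between cell types in control for Fos (1.10) and Dusp1 (0.45), and in the interaction for Jun (-0.72) and Nr4a2 (-0.24). With the background covariate they turned in iILC1 for Jund (-0.0789) and Egr1 (-0.0234), in control for Fos (0.15), Junb (0.12), Jund (0.41) and Egr1 (0.0489), and in the interaction for Jun (-0.17) and Nr4a2 (-0.0074). Nr4a3 in iNK was -0.0168 with RLE scaling and -0.0167 with DESeq2. Without the 2 libraries lowest on the first component, Jund in iILC1 was -0.22 and Egr1 in control 0.0897. The heat shock covariate moved Jund in control to 0.51. A filter at 5 CPM moved Dusp1 in control to 0.0088, and Jun and Nr4a2 in the interaction to -0.0316 and -0.0937. The labels do not say that replicate numbers pair the samples. Same-numbered libraries of different groups correlated at -0.18 to 0.63, and those with different numbers at -0.61 to 0.495. Libraries numbered 1 correlated at 0.209 to 0.625 in all pairs of groups. With a replicate block 0 members were called in any comparison and Nr4a2 in the interaction was -0.12. That block raised the genes called between cell types in control from 1056 to 2212. Leaving out 1 library at a time also turned signs. In iNK, Fos ran from -2.27 to 0.98, Jun from -1.44 to 0.18 and Nr4a3 from -0.20 to 0.46. In iILC1, Junb ran from -0.66 to 0.20, Jund from -0.23 to 0.54, Egr1 from -0.16 to 0.48, Nr4a3 from -0.33 to 0.14 and Dusp1 from -1.68 to 0.42. Between cell types in control, Fos ran from -1.65 to 1.97, Junb from -0.82 to 0.58, Egr1 from -0.97 to 0.10, Nr4a1 from -0.0783 to 0.56 and Dusp1 from -1.89 to 2.14. In the interaction, Fos ran from -3.13 to 0.46, Jun from -1.09 to 0.55, Junb from -0.31 to 1.07, Egr1 from -0.90 to 0.17, Nr4a2 from -0.55 to 0.35, Nr4a3 from -0.65 to 0.0779 and Dusp1 from -1.14 to 2.87. Calls over all genes ranged from 58 to 356 for genotype in iNK (110 as reported), 4 to 53 in iILC1 (13), 279 to 2212 for cell type in control (1056), 713 to 1640 in cKO (923) and 8 to 56 for the interaction (21).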
